A study of Mus musculus with 8 samples.

Results

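The AP-1 and C/EBP genes described here are *Fos*, *Fosb*, *Fosl1*, *Fosl2*, *Jun*, *Junb*, *Jund*, *Atf3*, *Cebpb* and *Cebpd*, 10 of the 21938 protein-coding genes annotated on the mouse chromosomes. Their chromatin was examined in an ATAC-seq comparison of E10.5 hearts, in which the Tn5 transposase inserts adapters into accessible DNA. The 4 WT samples and the 4 *Chd4-CMko* samples were pools of whole hearts with 40000 viable cells taken per sample, and the sources differ on whether 3 or 4 hearts were pooled. *Chd4-CMko* embryos lack CHD4 in cardiomyocytes by conditional deletion with a cardiac Cre. The other cells of these hearts keep *Chd4*, and in a pool of whole hearts a different share of a cell type and a different accessibility per cell cannot be told apart. The frozen hearts of both genotypes were thawed, pooled and dissociated with trypsin before Tn5 treatment.

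The deposited data were a list of 12991 peaks that were stronger in *Chd4-CMko* (gained peaks) and a list of 2745 that were stronger in WT (lost peaks). Each peak carried a position in mm10 and the authors' score, and no value per sample. No replicate error or test between the genotypes could therefore be had. The methods of the study state a sequencing depth that all samples share, but the lists give no read total for any sample, and the tissue could not be checked against cardiac markers. Regions whose signal did not differ are in neither list, so a gene without a listed peak may be open in both genotypes. A peak was given to a gene when that gene had the nearest transcription start site (TSS) of a protein-coding gene, or when the peak lay within 10 kb of the gene body. A peak within 3 kb of a TSS of the gene is called a promoter peak, and any other a distal peak.

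AP-1 is a family of dimeric transcription factors. FOS proteins pair with JUN proteins through a leucine zipper, and the paired basic regions bind the TPA response element (TRE), whereas dimers with ATF proteins tend to bind the cyclic AMP response element (CRE). C/EBP factors use the same basic leucine zipper (bZIP) fold and bind a different palindrome. Most of these genes are immediate early genes, which are induced within minutes by growth factors, stress and inflammation without new protein synthesis. In the heart, FOS and JUN genes are known for their rapid induction by load, and C/EBPβ for its fall with exercise. CHD4 is the ATP-dependent remodeller of the NuRD complex, which also holds histone deacetylases and is best known for keeping chromatin closed.

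Of the gained peaks assigned to these genes, the 5 of highest score lay upstream of *Junb* (2 peaks), over the start of *Cebpb*, upstream of *Jund* and downstream of *Fos*, and 1 gained peak lay in the coding sequence of *Fosl2*. Their sequences are shown because these 6 peaks hold the main values given for the family. They were read from the RefSeq GRCm38.p6 genome, the build of the mm10 positions, 5′ to 3′ on the strand of the member gene. Capitals mark any of 9 binding strings searched for on both strands with no mismatch, namely the TRE (TGACTCA), the CRE (TGACGTCA), the C/EBP string (TTGCNNAA), the TEAD string (ACATTCC), the GATA string, which reads AGATAAG, the CCAAT box, the GC box (GGGCGG), and the CArG and MEF2 boxes. The *Junb* peaks lay at chr8:84980057-84980207 and chr8:84985801-84985951 on the minus strand. The others lay on the plus strand, at chr2:167688808-167688958 for *Cebpb*, chr8:70691873-70692023 for *Jund*, chr12:85497894-85498044 for *Fos* and chr5:32152901-32153051 for *Fosl2*. For *Cebpb*, the 107 bases before the TSS are printed, chr2:167688808-167688914, and the 44 bases of the 5′ UTR are left out.
Junb promoter peak: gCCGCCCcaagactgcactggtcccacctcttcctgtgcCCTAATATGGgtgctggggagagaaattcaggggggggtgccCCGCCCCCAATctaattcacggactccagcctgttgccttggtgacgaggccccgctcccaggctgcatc
Junb distal peak: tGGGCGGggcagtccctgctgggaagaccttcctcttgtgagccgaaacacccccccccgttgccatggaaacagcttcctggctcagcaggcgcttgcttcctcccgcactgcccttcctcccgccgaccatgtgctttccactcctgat
Cebpb promoter peak before the TSS: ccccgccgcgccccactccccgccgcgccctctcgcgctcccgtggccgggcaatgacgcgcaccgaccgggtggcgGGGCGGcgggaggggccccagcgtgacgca
Jund distal peak: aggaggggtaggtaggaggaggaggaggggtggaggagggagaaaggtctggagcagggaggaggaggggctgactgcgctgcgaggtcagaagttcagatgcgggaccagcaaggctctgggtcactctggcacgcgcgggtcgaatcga
Fos distal peak: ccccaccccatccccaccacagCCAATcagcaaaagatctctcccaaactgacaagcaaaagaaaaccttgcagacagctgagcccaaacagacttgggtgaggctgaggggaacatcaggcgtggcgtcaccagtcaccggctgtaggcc
Fosl2 peak in the coding sequence: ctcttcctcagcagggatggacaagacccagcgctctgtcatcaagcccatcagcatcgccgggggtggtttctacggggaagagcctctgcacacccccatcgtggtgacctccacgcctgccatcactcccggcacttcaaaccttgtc

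Of the 10 genes, 8 had at least 1 gained peak, 13 gained peaks in all, and 1 gene had a lost peak. Among all protein-coding genes, 37.4% had a gained peak under the same assignment and 10.8% had a lost one. Promoter peaks were 2 of the 13 and belonged to *Junb* and *Cebpb*, so that 2 of 10 members had a gained promoter peak beside 12.4% of all protein-coding genes. None of the 10 had a lost promoter peak, beside 1.24% of all protein-coding genes. The remaining 11 gained peaks were distal. *Fosl2* had 3 gained peaks, *Jun*, *Junb* and *Atf3* had 2 each, and *Fos*, *Jund*, *Cebpb* and *Cebpd* had 1 each. Over all protein-coding genes, 16.3% had 2 or more gained peaks and 7.82% had 3 or more. *Fosb* and *Fosl1* had no gained and no lost peak.

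**Figure D1:**
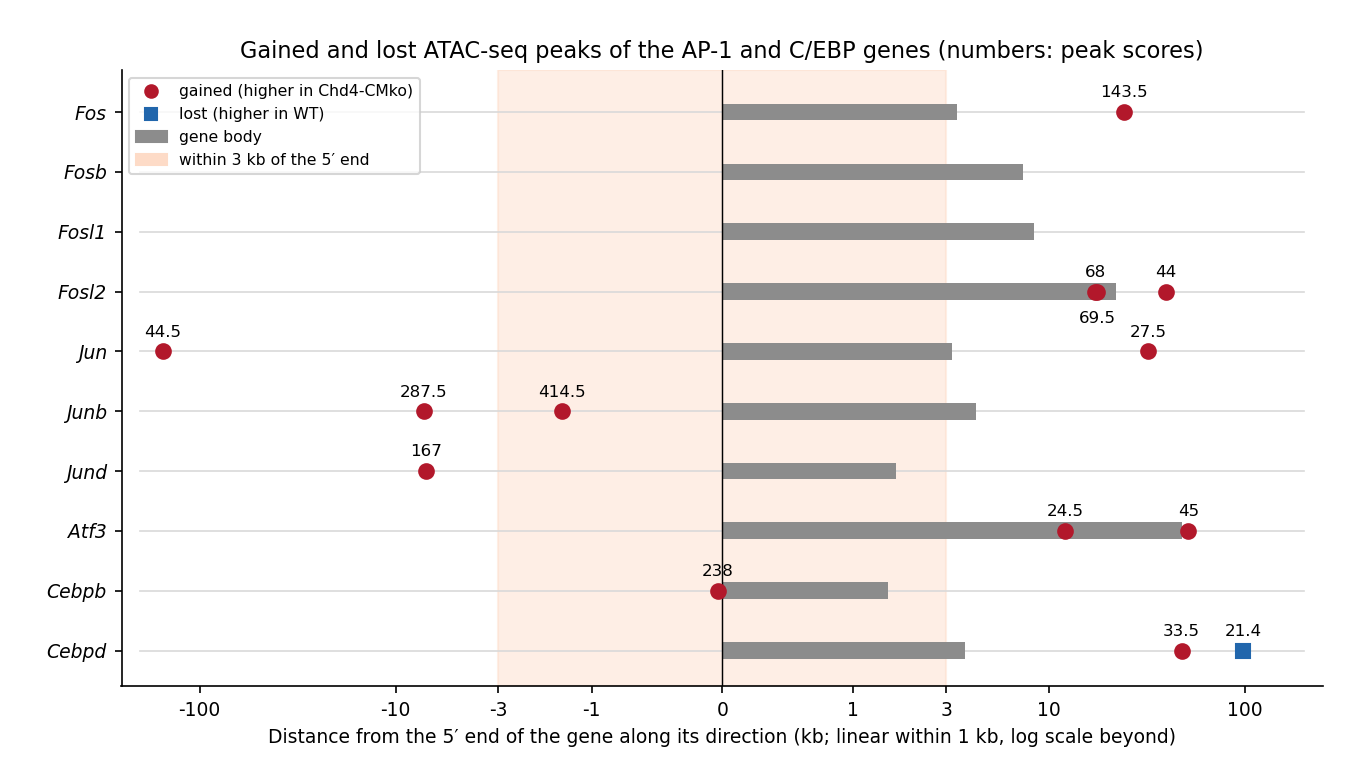
Position of each gained (circle) and lost (square) peak relative to the 5′ end of its gene, in kb along the direction of transcription (linear within 1 kb, log scale beyond), with the authors' score beside it, grey bars for gene bodies and shading for 3 kb on either side of the 5′ end. Only the *Junb* peak of score 414.5 and the *Cebpb* peak of score 238 lie in the shaded window, and the *Cebpd* peak of score 21.4 is the only lost peak.

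The 2 parts of the assignment rested on different peaks. By the nearest TSS alone, 11 gained peaks fell to 8 of the genes, beside 31.1% of all protein-coding genes with a gained peak by that criterion. By distance to the gene body alone, 8 gained peaks fell to 5 of the genes, beside 30.3%. For 6 peaks both criteria held. The 5 peaks beyond 10 kb of a gene body were those downstream of *Fos*, *Fosl2* and *Cebpd* and both of *Jun*. The start sites of these genes are rich in G and C. The 1 kb around the TSS had a median GC content of 62.2% over the 10 genes (52.3% to 75.8%) and of 54.7% over all protein-coding genes. Of the 13009 protein-coding genes with a promoter GC content between those of the members, 46.3% had a gained peak by the full assignment and 16.4% a gained promoter peak. Both shares were above those of all protein-coding genes, and how far GC content enters the members' counts was not tested.

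The scores of the 13 gained member peaks ran from 24.5 to 414.5 with a median of 68, beside a median of 62.5 (19 to 696.5) for the whole gained list. Of the 13, 7 scored above the list's median and 6 at or below it. The *Cebpb* peak and both *Junb* peaks were the 3 above the 90th percentile of the list. Promoter peaks scored higher than distal ones in the gained list as a whole, with a median of 122 for the 2995 peaks within 3 kb of a protein-coding TSS and of 54.5 for the other 9996. The high scores of the *Junb* and *Cebpb* promoter peaks are therefore also given against promoter peaks alone.

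**Figure D2:**
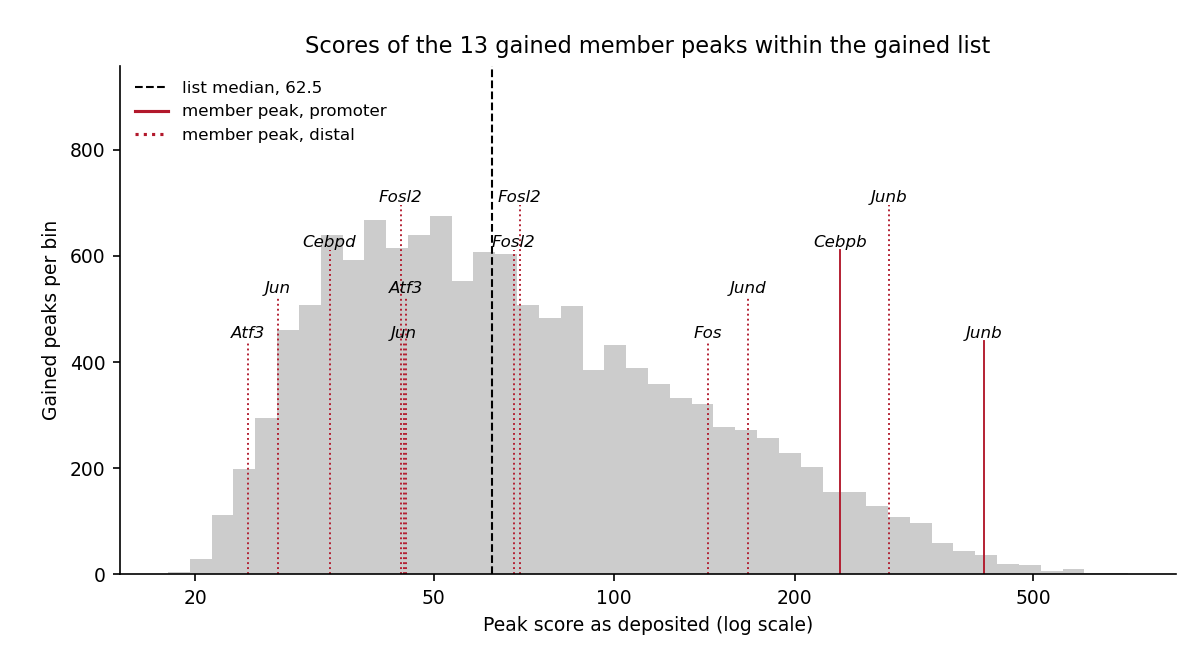
Number of gained peaks per score bin (grey, log scale on the score axis) with the scores of the 13 gained member peaks as vertical lines, solid for promoter and dotted for distal peaks. The line heights only space the labels, the dashed line is the list median of 62.5, and both *Junb* peaks and the *Cebpb* peak stand in the upper tail.

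Among the JUN genes, *Junb* stood highest. *Junb* (ENSMUSG00000052837, chr8:84974484-84978718, minus strand) encodes a JUN protein that activates more weakly than JUN and can restrain it. Its promoter peak lay in intergenic sequence 1339 bp upstream of the TSS, with a score of 414.5, percentile 99.4 of the gained list, which 73 of the 12991 gained peaks exceeded. Against gained promoter peaks alone the same score was at percentile 98.0. The peak printed above holds a CArG box, the binding string of serum response factor (SRF), that starts 1450 bp upstream of the TSS. It also holds a CCAAT string starting 1402 bp upstream and 2 GC boxes starting 1488 and 1408 bp upstream. The second of these GC boxes ends at the base before the CCAAT string, and the strings do not overlap.

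The other *Junb* peak scored 287.5, at percentile 96.9, and lay 7083 bp upstream of the TSS in intergenic sequence. The interval between the 2 *Junb* peaks was 5593 bp. This distal peak was assigned by its distance to the gene body, because the TSS of *Hook2* was nearer, at 4652 bp. It held a GC box and none of the other strings. *Junb* lies in a stretch with several gained peaks, 6 within 50 kb of the gene body, of which 4 had the TSS of *Mast1* or *Rtbdn* as the nearest.

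*Jund* (ENSMUSG00000071076, chr8:70698949-70700616, plus strand) encodes the JUN protein with the most constant expression in many cell types. Its single gained peak scored 167, at percentile 87.3, and lay 6926 bp upstream of the TSS between genes. The peak had 64.2% GC, 43.7% of its bases were soft-masked as repeats, and it held none of the 9 strings. Within 50 kb of *Jund* there were 4 gained peaks, and the other 3 had *Pgpep1* or *Pde4c* as the nearest gene.

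*Jun* (ENSMUSG00000052684, chr4:95049034-95052222, minus strand), the founding JUN gene and the main partner of FOS, had gained peaks only at long range. One lay 32092 bp from the TSS on the downstream side, at chr4:95019980-95020130, and scored 27.5, at percentile 5.27. The other lay 154139 bp upstream, at chr4:95206361-95206511, and scored 44.5, at percentile 30.7. Both were below the list median, and both lay in introns of other annotated genes, *Gm12694* and *Gm12708*. Their link to *Jun* rests on the absence of a nearer protein-coding TSS, the next being that of *Mysm1* at 40880 bp from the first peak and 227261 bp from the second. The downstream peak held a GATA string and 2 CCAAT strings, and the upstream peak a MEF2 string.

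The FOS genes showed distal gained peaks or none. *Fos* (ENSMUSG00000021250, chr12:85473890-85477273, plus strand), the most rapidly induced AP-1 gene, had 1 gained peak 20621 bp beyond its 3′ end. Its score of 143.5 was at percentile 83.4 of the list and at percentile 91.1 of the distal gained peaks. The peak was 22983 bp from the nearest TSS of *Fos* and 100983 bp from the next protein-coding TSS, that of *Jdp2*, which encodes another AP-1 partner. It held a single CCAAT string near its start. No gained peak lay closer to *Fos*, and the nearest lost peak was 1195774 bp away.

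*Fosl2* (ENSMUSG00000029135, chr5:32135801-32157842, plus strand) encodes FRA-2, a FOS protein without the strong activation domain of FOS. It had 3 gained peaks, more than any other member. The peak printed above lay in coding sequence of exon 4, the last exon, and scored 68. The next lay 294 bp further on in the 3′ UTR of the same exon, at chr5:32153346-32153496, and scored 69.5. Both scores were close to the list median, at percentiles 54.8 and 55.9. They were 6380 and 6825 bp from a TSS of a non-coding *Fosl2* transcript, and 17100 and 17545 bp from the TSS of a coding one, so neither was a promoter peak. The third *Fosl2* peak lay between genes 17463 bp beyond the 3′ end, at chr5:32175305-32175455, and scored 44. Soft-masked repeats made up 90.1% of that peak, and it was 206 bp from *Gm26335*.

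*Fosb* (ENSMUSG00000003545, chr7:19302696-19310051, minus strand) encodes an inducible FOS protein, and *Fosl1* (ENSMUSG00000024912, chr19:5447547-5455946, plus strand) encodes FRA-1, which is itself transcribed under AP-1 control. Neither had a listed peak under the assignment. The 10 kb limit decided this for *Fosb*, as the nearest gained peak was 11118 bp from its body, scored 217.5 and had the TSS of *Rtn2* at 359 bp. Within 50 kb of *Fosb* there were 5 gained peaks with scores of 112, 253.5, 211, 217.5 and 114.5, nearest to *Vasp*, *Vasp*, *Rtn2*, *Rtn2* and *Ercc1*. *Fosb* therefore lies among gained peaks that are nearer to the TSSs of other genes. For *Fosl1* the nearest gained peak was 46272 bp away, scored 130.5 and had *Tsga10ip* as its nearest gene.

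*Atf3* (ENSMUSG00000026628, chr1:191170296-191218039, minus strand) encodes a stress-induced bZIP protein that pairs with JUN proteins and often represses. One of its gained peaks lay in an intron 12030 bp from a TSS, at chr1:191205859-191206009, and had the lowest score of the 13, 24.5, at percentile 1.84. The other lay 3651 bp beyond the 3′ end, at chr1:191166495-191166645, and scored 45, at percentile 31.3. That second peak was 1678 bp from the TSS of *Fam71a* and is a promoter peak of that gene. The intronic peak held a GATA string and the other a TEAD string. Both *Atf3* scores were below the list median, and neither peak was within 3 kb of an *Atf3* TSS.

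Of the C/EBP genes, *Cebpb* carried its gained peak over the TSS and *Cebpd* at long range. *Cebpb* (ENSMUSG00000056501, chr2:167688915-167690418, plus strand) encodes C/EBPβ, a regulator of inflammation, metabolism and differentiation. Its peak began 107 bases before the TSS, ended inside exon 1 and scored 238. That score was at percentile 94.5 of the gained list and at percentile 82.9 of gained promoter peaks. With 80.1% GC and 25 CpG dinucleotides in 151 bp, it was the most GC-rich of the 13. A GC box starts 30 bp before the TSS, and none of the other strings was present. The peak was also 864 bp from a TSS of *Tmem189*, so it counts as a promoter peak of both genes.

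*Cebpd* (ENSMUSG00000071637, chr16:15887286-15891031, plus strand) encodes C/EBPδ, an acute-phase regulator, and was the only member with peaks in both lists. The gained peak, at chr16:15934723-15934873, was 46307 bp from the TSS and scored 33.5, at percentile 14.5 of the gained list. The lost peak, at chr16:15984938-15985088, was 96522 bp from the TSS and scored 21.4, at percentile 10.9 of the lost list. Both lay in introns of *Spidr*, a DNA repair gene, downstream of *Cebpd*, and were of low score in their own list. Their link to *Cebpd* rests on the nearest TSS alone, the next being that of *Mzt2* at 71354 and 121569 bp. By distance to the gene body they fall to *Spidr* and not to *Cebpd*. Their sequences are given because they are the only pair of opposite direction at 1 of the genes. The capitals mark the GATA string of the gained peak, and the lost peak held none of the 9 strings.
Cebpd gained peak: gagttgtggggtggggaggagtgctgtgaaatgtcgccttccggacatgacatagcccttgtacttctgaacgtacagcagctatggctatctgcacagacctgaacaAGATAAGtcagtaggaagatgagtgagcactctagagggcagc
Cebpd lost peak: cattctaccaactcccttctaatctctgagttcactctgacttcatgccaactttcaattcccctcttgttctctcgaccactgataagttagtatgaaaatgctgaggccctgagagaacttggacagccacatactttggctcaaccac

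Within 50 kb of the gene body, all 10 genes had between 1 and 6 gained peaks, beside 54.7% of all protein-coding genes with at least 1. None of the 10 had a lost peak in that range, beside 14.4% of all protein-coding genes, and 10 genes are too few to set a count of 0 apart from that share. The nearest lost peak was 62993 bp away for *Fosb*, 93907 bp for *Cebpd*, 114823 bp for *Atf3* and at least 462055 bp for the other 7 genes. The stretches in which a member had the nearest protein-coding TSS covered 0.801 Mb and held 11 gained peaks, or 13.7 per Mb, and 1 lost peak, or 1.25 per Mb. Over the whole genome there were 4.77 gained and 1.01 lost peaks per Mb. Both values for the members were above those of the genome at large, which includes long stretches without genes, and that for lost peaks rests on the single peak of *Cebpd*. The stretches of *Junb*, *Jund*, *Cebpb* and *Fosl1* were 10.7, 12.9, 14.1 and 16.4 kb long, that of *Jun* was 289 kb, and the median over all protein-coding genes was 45.1 kb.

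The binding strings of the 2 families were searched for in the members' own peaks and start sites. None of the 13 gained member peaks held a TRE, a CRE or a C/EBP string, which says only that these letters are not in those windows. In the whole gained list 4.19% of peaks held the TRE, 0.893% the CRE and 3.33% the C/EBP string. With 13 peaks, counts of 0 cannot be told from these shares. CCAAT was in 4 of the 13 peaks (29.3% of the gained list), the GC box in 3 (22.5%) and the GATA string in 3 (5.45%). The CArG box of *Junb* was the only one in the 13, and 2.46% of all gained peaks held one. The MEF2 string was in 1 (3.26%), as was the TEAD string (3.76%).

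Promoter windows from 250 bases before to 50 after the start, from RefSeq for GRCm38.p6, matched 8 of the 10 genes, all but *Fosl1* and *Cebpd*. None of the 8 held a TRE or a CRE, beside 5.2% and 1.79% of all 32851 windows. The C/EBP string was in the *Jund* window (10.8% of all windows). The GC box was in those of *Fos*, *Fosb*, *Fosl2*, *Jun*, *Atf3* and *Cebpb* (35.7%), and CCAAT in those of *Jun*, *Junb* and *Atf3* (37.4%). No window of the 8 held a CArG box in this exact form (1.63%). A CArG box more than 250 bases before the start would lie outside these windows and is not counted. The MEF2 string was in the windows of *Jun* and *Atf3* (3.19%), and the GATA string in that of *Jun* (3.04%).

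In all listed peaks, the TRE and the C/EBP string were less frequent in the gained list and the CRE more frequent. The TRE was in 544 of 12991 gained peaks, 4.19% (Wilson 95% interval 3.86 to 4.55), and in 191 of 2745 lost peaks, 6.96% (6.07 to 7.97). The difference was -2.77 percentage points (Newcombe 95% interval -3.84 to -1.81). The CRE was in 116 of 12991 gained peaks, 0.893% (0.745 to 1.07), and in only 7 of 2745 lost peaks, 0.255% (0.124 to 0.525). That difference of 0.638 points (0.33 to 0.858) rests on few lost peaks. The C/EBP string was in 3.33% (3.03 to 3.65) of gained and 4.55% (3.84 to 5.4) of lost peaks, a difference of -1.23 points (-2.12 to -0.441). In the part of each list at or above its median score, the difference was -2.24 points (-3.72 to -0.975) for the TRE, 1.01 points (0.563 to 1.32) for the CRE and -2.36 points (-3.71 to -1.23) for C/EBP. Each interval overlapped that over all peaks. In that part, 2 of 1384 lost peaks held the CRE. The intervals reflect the number of peaks alone, and peaks close to each other are not independent.

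GC content also differed between the lists, with a median of 55% in gained and 50.3% in lost peaks. In peaks of 45 to 55% GC the TRE difference was -2.5 points (-3.92 to -1.23), the CRE difference 0.668 points (0.263 to 0.969) and the C/EBP difference -0.207 points (-1.4 to 0.837). In that range the intervals for the TRE and the CRE were thus clear of 0 in the same directions as over all peaks, and that for C/EBP was not. Only 4 of 1800 lost peaks in that range held the CRE.

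By narrower steps of GC content, the TRE difference was -5.58 points (-14.7 to 3.79) at 30 to 40% GC and -3.95 points (-5.81 to -2.25) at 40 to 50%. It was -0.764 points (-2.25 to 0.506) at 50 to 60% and 1.81 points (-1.91 to 2.81) at 60 to 70%. The interval for the TRE was clear of 0 only at 40 to 50% GC. The sign of the estimate turned at 60 to 70%, where 1 of 122 lost peaks held the TRE and the interval included 0. For the CRE only the interval at 50 to 60% GC was clear of 0, with a difference of 0.714 points (0.268 to 0.986). In that class 2 of 1315 lost peaks held the CRE. For C/EBP only that at 60 to 70% GC was, at -4.0 points (-9.65 to -1.0), a class with 122 lost peaks of which 7 held the string. The C/EBP differences at 40 to 50% and 50 to 60% GC were -0.0259 points (-1.73 to 1.52) and 0.529 points (-0.598 to 1.43).

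**Figure D3:**
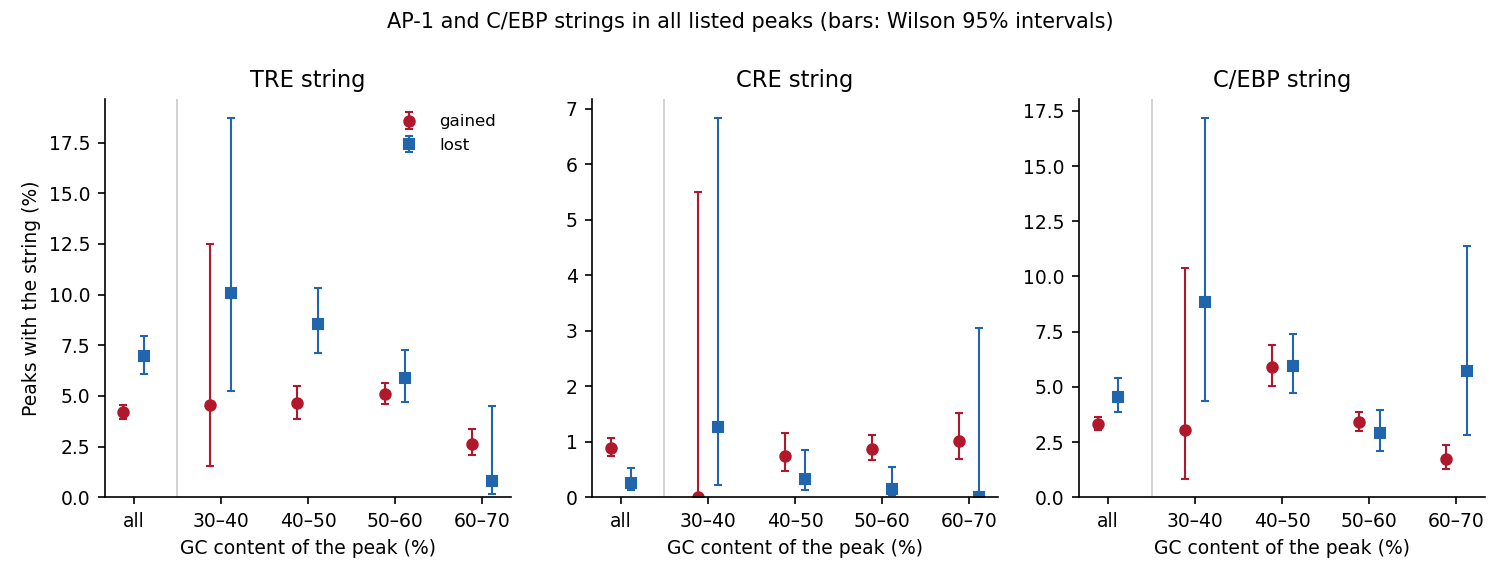
Share of gained (circles) and lost (squares) peaks that hold the TRE, CRE or C/EBP string, over all peaks and by GC content of the peak, with Wilson 95% intervals as bars. The y axes differ between the panels, and the TRE intervals of the lists are apart over all peaks and at 40 to 50% GC and overlap at 50 to 60% GC.

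The rest of the pathway was described through 5 lists of genes, set beside the same shares of all protein-coding genes, 37.4% for a gained and 10.8% for a lost peak. Of 16 other bZIP genes of the AP-1 superfamily, 7 (43.8%) had a gained and 4 (25%) a lost peak. The gained promoter peaks of this list were 2 over starts of *Batf3*, scores 144 and 311, and its lost promoter peak was at *Bach2*, score 50.5 and 2530 bp from a TSS. *Batf3* encodes a small bZIP partner of JUN, and *Bach2* a repressor at AP-1-like sites. All 4 other C/EBP family genes had a gained and none a lost peak, and *Ddit3*, which encodes the stress-induced inhibitor CHOP, had a promoter peak of score 306 at 1997 bp. For these 4 genes, each had exactly 1 gained peak. Those of *Cebpa*, *Cebpe* and *Cebpg* were distal, 15898, 6108 and 20113 bp from a TSS. They scored 27, 177 and 33, at percentiles 4.6, 88.7 and 13.6 of the gained list.

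Upstream of AP-1, 7 of 15 kinases and SRF or ETS cofactors (46.7%) had a gained and 4 (26.7%) a lost peak. *Map3k1*, a kinase at the head of the JNK cascade, had the list's only gained promoter peak, score 128 at 168 bp. Of 20 other immediate early genes, 14 (70%) had a gained and 1 (5%) a lost peak. Some of the 14 were counted only at very long range, through the nearest TSS. The gained peaks of *Myc* lay 174946 to 508896 bp from its TSS, and those of *Klf6* 136892 to 453526 bp. Gained promoter peaks were at *Ier3*, a stress-response gene, with a score of 399.5 at 21 bp, and at the orphan nuclear receptor genes *Nr4a2* (269 at 93 bp) and *Nr4a3* (181.5 at 400 bp). Of 20 genes taken as targets of AP-1 or C/EBP, *Fosl1* among them, 8 (40%) had a gained and 1 (5%) a lost peak. *Cdkn1a*, which encodes the cell cycle inhibitor p21, had the only promoter peak of that list, score 202.5 at 905 bp. Beside the 46.3% of protein-coding genes with a promoter GC content in the members' range, the shares of the other bZIP genes and of the kinases and cofactors were about level, and both lists had a median promoter GC content (64.8% and 64.5%) near that of the members. The targets' share was near that of all protein-coding genes. For gained promoter peaks, the shares of the other bZIP genes (6.25%), the kinases and cofactors (6.67%) and the targets (5%), 1 gene each, stood beside the 12.4% of all protein-coding genes. Those of the other immediate early genes, 3 of 20 (15%), and of the other C/EBP genes, 1 of 4 (25%), also rested on few genes, and none of the 5 counts is large enough to be set apart from that share. No list was tested against another.

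**Figure D4:**
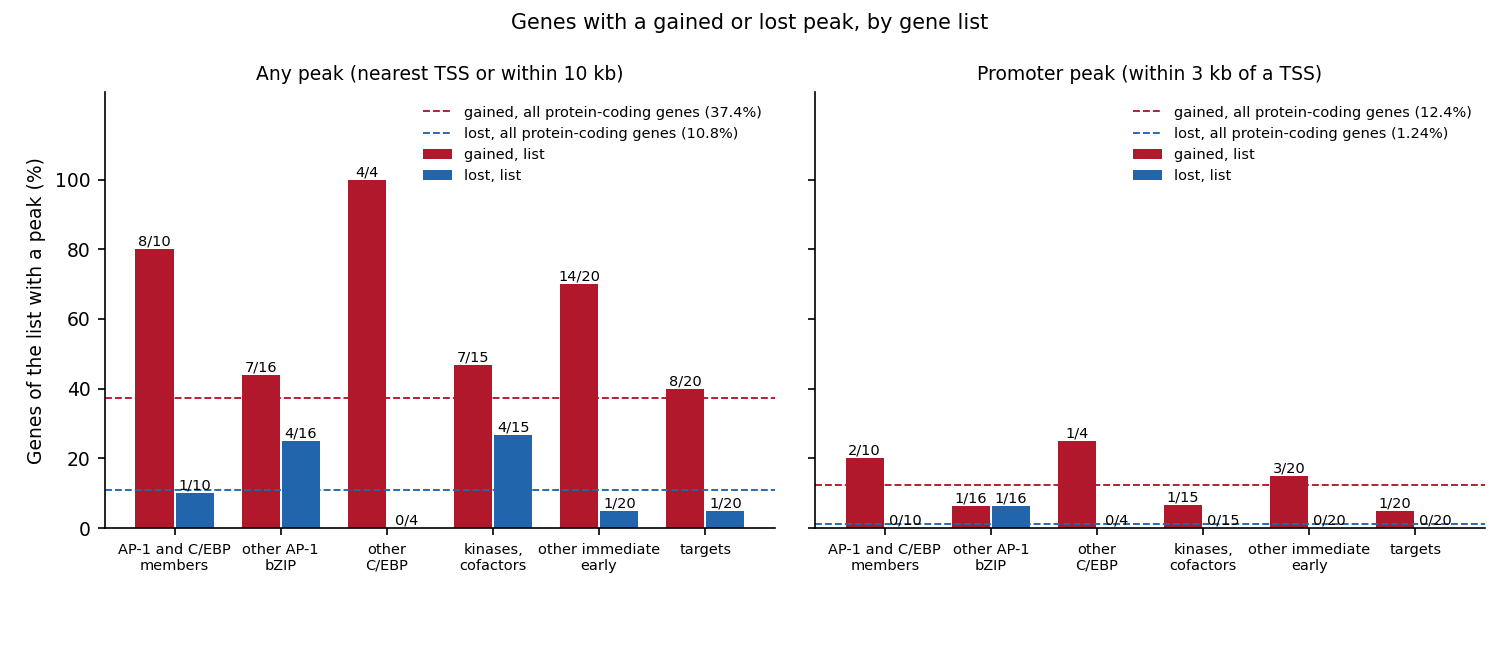
Share of genes with a gained (red) or lost (blue) peak in the members and in the 5 other lists, by the full assignment (left) and for promoter peaks (right), with counts above the bars and dashed lines for all protein-coding genes. For any gained peak the members (8 of 10), the other C/EBP genes (4 of 4) and the other immediate early genes (14 of 20) stand highest above the dashed line at 37.4%, and the other AP-1 bZIP genes (7 of 16), the kinases and cofactors (7 of 15) and the target genes (8 of 20) lie closer above it on the left and have 1 gene each with a promoter peak on the right.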

How the data were processed

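ATAC-seq had been done on 4 WT and 4 *Chd4-CMko* samples of E10.5 hearts. The authors used BWA-MEM for alignment to mm10, HOMER 4.10.3 for peak calling and ChIPseeker 1.20.0 for annotation, and deposited peaks past a fold-change limit in 2 BED lists. The deposited score of each peak is the authors' value, whose scale is not given in the sources used here, so scores were ranked only within their list. The exception is an alternative with a common score limit, which takes the scores of the 2 lists to be on the same scale. Read filters, Tn5 shift, the treatment of duplicates and whether replicates were merged for peak calling are also not given in the sources used here.

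BED starts were made 1-based. TSSs were those of all transcripts of protein-coding genes in GENCODE M21. Repeats were the soft-masked bases of RefSeq GRCm38.p6. Strings were counted as peaks with at least 1 match, and shares were given Wilson intervals at 95%, their differences Newcombe intervals. Scripts used Python 3.11.15, pandas 2.3.3, scipy 1.17.1 and pysam 0.24.0 and were tested on simulated data. With no value per sample, no test between genotypes was made. Named genes were the members, genes of the lists with a promoter peak, and genes nearest to peaks around the members. A few list genes were also named to show weak or far peaks. The members, lists and strings were chosen with earlier results of these data known. In the list of kinases and cofactors, *Mrtfa* and *Mrtfb* were counted once under their current names. Alternatives were other distances, TSS sets, score limits and strings.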

Additional observations from a re-analysis of the deposited data

How the results depend on the processing

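Of 60 alternative values, 44 stayed within 1.5 times the reported count or within the reported interval, and 16 did not. The 13 gained member peaks became 8 by distance to the gene body alone, 28 with a limit of 50 kb and 7 in the part of the list at or above its median score. The 8 members with a gained peak became 5 by distance alone and 5 in that upper part. The single lost peak, and with it the single member with one (*Cebpd*), became 0 by distance alone, with the nearest TSS of any gene type, in the upper part of the list and with a common score limit of 36.8. Of the 2 members with a gained promoter peak, 1 (*Cebpb*) remained within 1 kb of a TSS. The share of gained peaks with the TRE, 4.19%, was 5.05% when the CRE was also counted and 5.11% at 45 to 55% GC. With TSSs of protein-coding transcripts alone, chosen after seeing the data, there were 16 gained peaks at 8 members. These changes follow from how each alternative selects peaks. No paired analysis was possible because the deposited lists hold no value per sample, and for the same reason no replicate could be left out. The lists give no read total per sample, so no limit from depth could be set for a peak.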
